A study of Mus musculus with 10 samples.

Results

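The guanylate-binding proteins Gbp2 to Gbp9 were followed in mouse bone marrow-derived dendritic cells recorded as CD11c+ with high MHC class II. They were taken by symbol as 8 of the 41813 genes of each RSEM table, and each symbol matched 1 gene ID. The comparison was of 3 activated with 3 non-activated RNA-seq libraries, and the 4 ATAC-seq samples of the series, 2 in each group, were not analysed here. The design of the series gives LPS, the TLR4 ligand of Gram-negative bacteria, to all cells. It adds the ovalbumin peptide OVA323-339 to the activated ones alone, and has all of them share a dish for 24 h with CD4+ OT-II T cells, which carry a receptor for this peptide. The sample labels instead record LPS for the activated cells and no stimulus for the non-activated ones. The names activated and non-activated therefore follow the sample titles. Mouse strain and age are not given in the sources used here. Whether a replicate is an animal or a culture is not stated either, and a p-value therefore speaks of the spread among these libraries alone, which may be technical.

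Guanylate-binding proteins are large GTPases of the dynamin superfamily that interferons, above all interferon gamma, induce, in part through the transcription factor IRF1. They assemble as coats on bacteria and on the vacuoles of intracellular parasites, where they open the pathogen's compartment and expose LPS and DNA to caspase-11 and AIM2 in the cytosol. Delivery of the coat needs the immunity-related GTPases and the ATG8 conjugation machinery, and Gbp2 and Gbp5 also carry a lipid anchor added by prenyl transferases. In mice the genes lie in a pair of clusters.

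Gbp5, Gbp7, Gbp3 and Gbp2 lie in this order on chromosome 3, together with Gbp2b, and the 5 genes span 141.1 kb from 142496934 to 142638008 (RefSeq annotation of GRCm38.p6). Gbp8, Gbp9, Gbp4 and Gbp6 lie on chromosome 5, together with Gbp10 and Gbp11, and these 6 genes span 334.0 kb from 105012513 to 105346476. Gbp2 to Gbp9 are all annotated as protein-coding. Gbp11 is annotated as a transcribed pseudogene. Gene starts and ends were 142620663 to 142638008 for Gbp2 (ENSMUSG00000028270), 142560016 to 142573213 for Gbp3 (ENSMUSG00000028268), 142496934 to 142522344 for Gbp5 (ENSMUSG00000105504) and 142530336 to 142550151 for Gbp7 (ENSMUSG00000040253). On chromosome 5 they were 105115767 to 105139586 for Gbp4 (ENSMUSG00000079363), 105270702 to 105295871 for Gbp6 (ENSMUSG00000104713), 105012513 to 105053609 for Gbp8 (ENSMUSG00000034438) and 105076464 to 105110357 for Gbp9 (ENSMUSG00000029298).

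Promoter windows of 300 bases, from 250 before to 50 after an annotated start, were found in the RefSeq table of GRCm38.p6 for Gbp2, Gbp3, Gbp5 and Gbp7. They were searched on both strands for the core of the interferon-stimulated response element (ISRE, bound by factors of the IRF family), GAAA, any 2 bases and GAAA again, and for the gamma-activated site (GAS, an element of interferon gamma responses), TTCNNNGAA, which reads the same on both strands. The stretches that hold the matches are shown because Gbp2, Gbp3, Gbp5 and Gbp7 were all higher in activated cells, with Gbp2b, which was not called, beside them. Capitals mark the matches, and each ISRE core stands here as its reverse complement. Each stretch lies before the annotated gene start, on the plus strand.
Gbp5, chr3:142496684-142496910: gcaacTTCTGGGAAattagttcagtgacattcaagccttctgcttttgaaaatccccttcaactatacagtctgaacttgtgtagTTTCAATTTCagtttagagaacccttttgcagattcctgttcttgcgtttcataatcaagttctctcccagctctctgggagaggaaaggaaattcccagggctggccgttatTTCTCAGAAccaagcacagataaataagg
Gbp7, chr3:142530210-142530312: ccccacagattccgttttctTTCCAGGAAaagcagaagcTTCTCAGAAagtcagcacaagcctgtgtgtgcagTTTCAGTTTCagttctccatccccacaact
Gbp3, chr3:142559979-142560015: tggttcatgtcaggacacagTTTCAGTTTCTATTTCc
Gbp2, chr3:142620584-142620633: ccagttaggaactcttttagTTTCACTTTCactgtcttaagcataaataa
Gbp2b, chr3:142594690-142594739: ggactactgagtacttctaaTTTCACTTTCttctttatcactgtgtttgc

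An ISRE core was present in the windows of all 4 members searched, in 1 of the 2 windows of Gbp3, where 2 matches overlap. It was found in 3.44% of all 32851 windows in the table. The start is that of the transcript from which each window was cut, 142560044 for Gbp3 and 142594847 for Gbp2b, and for the other 3 the gene start given above. With the last base before it as -1, the match began at -59 in Gbp2, -53 in Gbp7, -45 and -39 in Gbp3 and -165 in Gbp5. GAS matches were present in Gbp5, beginning at -245 and -52, and in Gbp7, at -106 and -87, against 8.3% of all windows. Gbp5 and Gbp7 held both motifs, as did 0.454% of all windows. Gbp2b also held an ISRE core, beginning at -137. A match is a description of letters and not of binding.

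**Figure D1:**
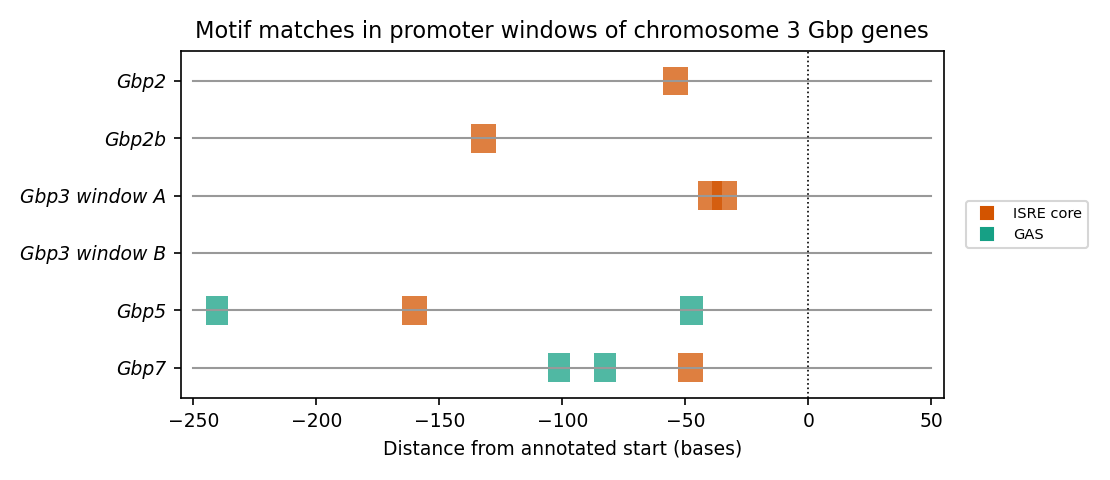
Positions of ISRE core (orange) and GAS (green) matches in 300-base promoter windows of chromosome 3 Gbp genes, by distance in bases from the annotated start (dotted line). Each line is a window, and every window but the second of Gbp3 holds an ISRE core.

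The libraries held 21338012 to 27404937 expected counts, and log2 CPM (counts scaled to library size) correlated at 0.9764 to 0.9857 within groups. Both replicate 1 libraries stood apart in Trac, the constant region of the T cell receptor alpha chain. It took 0.728% of counts in activated and 0.758% in non-activated replicate 1, and at most 0.00273% in the other 4 libraries, while Cd3d, Cd3e and Cd3g together reached only 3.65 and 0.543 CPM in these 2. The count of members called is therefore also given without replicate 1 of both groups, a choice made after seeing the data. Of 11 dendritic cell markers tested, 5 (Irf4, Ly75, Sirpa, Zbtb46 and Ciita) were higher and 0 lower. Ciita (edgeR adjusted p = 0.0299) was lost without any 1 of 5 libraries (edgeR adjusted p up to 0.0972). Over all alternatives, with edgeR, DESeq2 or limma, its adjusted p was 0.000827 to 0.208. With the replicate number as a block 2 were lower, H2-Aa (log2 -0.39, edgeR adjusted p = 0.0107) and H2-Eb1 (log2 -0.31, edgeR adjusted p = 0.046). H2-Aa was also called lower in DESeq2 (log2 -0.39, DESeq2 adjusted p = 0.0317). Activated libraries averaged 6852 ± 1280 CPM of Cd74 and 323 ± 122 CPM of Itgax, which encodes CD11c, against 7801 ± 640 and 346 ± 79.1 CPM in non-activated ones (SD, n = 3 each), whereas Cd209a had 0 counts in activated and 2 in non-activated libraries together. The 14 T cell markers other than Trac and Trbc2 summed to 37.9 to 50.5 CPM in activated and 32.3 to 58.7 CPM in non-activated libraries. Most of these counts were of Cd28 (1199 in activated and 2406 in non-activated libraries together) and Thy1 (629 and 747). Both of these and Cd8a (8 and 16) had fewer counts in activated libraries. Every other marker of the 14 had more, such as Cd3e (66 and 14), Cd4 (51 and 8) and Cd2 (52 and 1). Activated replicate 1 held most counts of these last genes (51, 40 and 37). Of 8 T cell markers tested, 3 were higher and 0 lower: Lck (4.37 ± 0.692 CPM in activated against 0.999 ± 0.279 CPM in non-activated cells), Zap70 (1.96 ± 2.01 and 0.249 ± 0.191 CPM) and Cd247 (3.78 ± 1.24 and 1.65 ± 0.709 CPM). The count was 1 without activated replicate 1, non-activated replicate 2 or non-activated replicate 3, and 4 higher with 1 lower (Cd28) without replicate 1 of both groups. With the block, 3 were higher and Cd28 was lower (log2 -0.90, edgeR adjusted p = 0.000115). Cd28 was also called lower without non-activated replicate 1 (log2 -1.23, edgeR adjusted p = 0.0211) and with no low-count filter (log2 -0.95, edgeR adjusted p = 0.0109). In activated libraries 8 B cell markers summed to 3.03 to 6.63, 7 NK cell markers to 0.422 to 1.24 and 8 neutrophil markers to 0.292 to 0.516 CPM. In non-activated libraries these sums were 1.72 to 4.01, 0.62 to 1.32 and 0.388 to 0.597 CPM. Of these, 1 of 3 tested B cell markers (Cd79b) was higher, the 1 NK cell marker tested did not pass and 0 neutrophil markers had enough counts to be tested. Vpreb3, Klrb1c, Klra8 and Retnlg were at 0 in every library. The 9 macrophage markers summed to 1720 to 2900 CPM in activated and 2420 to 3050 CPM in non-activated libraries, with Mertk higher and Fcgr1 lower (edgeR adjusted p = 0.0454, lost without any 1 of 4 libraries, up to 0.13; 0.00533 to 0.172 over all alternatives). With the block C1qb and C1qc were lower too, which made 3. Each of C1qb and C1qc was also called lower in some other fits, among them DESeq2 and edgeR with no low-count filter. The part of other cells in the Gbp results was not tested.

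All 8 genes were higher in activated cells, and 0 were lower. Rounded expected counts were tested with edgeR's quasi-likelihood test over 13946 genes, with a Benjamini-Hochberg adjusted p threshold of 0.05, and of all genes tested 27.6% were called, 15.9% as higher and 11.7% as lower. Of the genes called, 57.6% were higher, or 44.1% with library totals as the only scaling, under which all 8 were still called. The median log2 fold change was 1.07 for the 8 genes and 0.01 for all genes tested. Of the 8, 7 were called and at least 1.5-fold higher, as were 10.3% of all genes. Activated and non-activated libraries did not overlap in normalised CPM for any of the 8, as was the case, with activated higher, for 23.9% of all genes. In bulk RNA, a larger number of expressing cells and more RNA per cell cannot be told apart. Without replicate 1 of both groups, all 8 were still called higher, against 12.9% of all genes.

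Gbp2 was the most abundant member, with 403, 481 and 511 TPM (transcript level scaled by length and library total) in activated replicates 1 to 3, against 285, 252 and 276 TPM in non-activated cells. Every activated library lay above every non-activated one, although activated replicate 1 was the lowest of its group and non-activated replicate 1 the highest of its own. Gbp2, a prenylated GTPase that coats parasite vacuoles and cytosolic bacteria, was 1.72-fold higher by counts (log2 0.78 ± 0.11, SE; edgeR adjusted p = 0.00125). Gbp5, also prenylated and described in mouse macrophages as a promoter of NLRP3 inflammasome assembly, had 234, 219 and 254 TPM in activated cells, against 69.5, 69.0 and 80.6 TPM in non-activated cells. It had the widest separation between groups and the smallest spread among activated libraries of the 8 (coefficient of variation of CPM 5.6%). Its fold change was 3.26 (log2 1.70 ± 0.08, SE; edgeR adjusted p = 9.25e-06), which placed it at rank 431 of 13946 by fold change and at rank 32 by p.

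Gbp3, which is recruited to Toxoplasma vacuoles in mouse cells, had 82.0, 106 and 125 TPM in activated cells, against 52.7, 47.1 and 51.0 TPM in non-activated cells. Gbp7, described in mouse macrophages as a partner in the assembly of the NADPH oxidase, had 48.5, 64.3 and 65.6 TPM in activated cells, against 29.0, 29.5 and 28.4 TPM in non-activated cells. In both genes activated replicate 1 was the lowest of its group and still lay above all non-activated libraries. Gbp3 was 2.08-fold higher (log2 1.05 ± 0.13, SE; edgeR adjusted p = 0.000664) and Gbp7 2.12-fold higher (log2 1.08 ± 0.11, SE; edgeR adjusted p = 0.000205).

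The chromosome 5 members changed in a similar range. Gbp4 had 87.8, 117 and 138 TPM in activated cells, against 59.1, 48.7 and 63.4 TPM in non-activated cells. Gbp6, which is found on Toxoplasma vacuoles in mouse cells, had 49.4, 75.5 and 74.3 TPM in activated cells, against 31.1, 22.9 and 21.3 TPM in non-activated cells. In Gbp6 replicate 1 was again the lowest activated and the highest non-activated library, which made it the member with the largest spread in CPM (20.1% in activated and 22.6% in non-activated cells). Gbp4 was 2.06-fold higher (log2 1.05 ± 0.13, SE; edgeR adjusted p = 0.000774) and Gbp6 2.64-fold higher (log2 1.40 ± 0.19, SE; edgeR adjusted p = 0.00113).

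Gbp9, also recruited to Toxoplasma vacuoles, had 38.0, 33.9 and 46.8 TPM in activated cells, against 19.8, 20.1 and 20.1 TPM in non-activated cells. Its non-activated libraries were nearly level in TPM, whereas in CPM the coefficient of variation was 11.5% in activated and 6.12% in non-activated libraries. It was 2.12-fold higher (log2 1.09 ± 0.10, SE; edgeR adjusted p = 0.000179). Gbp8 had the smallest change of the 8, with 40.6, 37.5 and 52.0 TPM in activated cells, against 27.9, 31.0 and 30.0 TPM in non-activated cells. The groups of Gbp8 did not overlap either, but activated replicate 2 lay close to non-activated replicate 2. Gbp8 was 1.46-fold higher (log2 0.54 ± 0.11, SE; edgeR adjusted p = 0.00635). On log2(TPM + 1), with all genes of any TPM above 0 in the test, limma no longer called it (log2 0.52, adjusted p = 0.0693, the highest of the alternatives; the lowest was 0.000443).

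**Figure D2:**
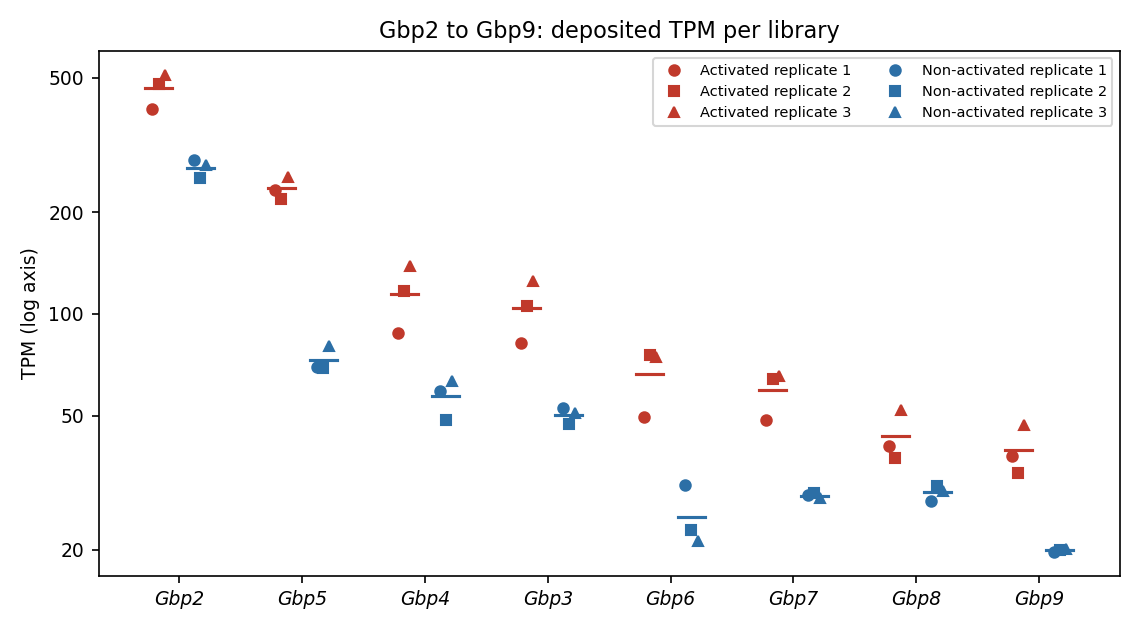
Deposited TPM of Gbp2 to Gbp9 on a log axis, in 3 activated (red, left) and 3 non-activated (blue, right) libraries; symbols mark the replicate and lines the group mean. Activated libraries lie above non-activated ones for every gene, from 403 to 511 against 252 to 285 TPM for Gbp2 to 33.9 to 46.8 against 19.8 to 20.1 TPM for Gbp9.

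By TPM the order in activated cells was Gbp2, Gbp5, Gbp4, Gbp3, Gbp6, Gbp7, Gbp8 and Gbp9, with means from 465 ± 55.6 to 39.6 ± 6.62 TPM (SD, n = 3). The ranges of Gbp4 and Gbp3, of Gbp6 and Gbp7, of Gbp7 and Gbp8, and of Gbp8 and Gbp9 overlapped between libraries, although the order of each such pair was the same in 3 of 3 libraries. In non-activated cells the order was Gbp2, Gbp5, Gbp4, Gbp3, Gbp8, Gbp7, Gbp6 and Gbp9, from 271 ± 17 to 20.0 ± 0.19 TPM, and the ranges of Gbp4 and Gbp3, of Gbp8 and Gbp7, and of Gbp7 and Gbp6 overlapped. There Gbp4 was above Gbp3 in 3 of 3 libraries, and Gbp8 above Gbp7 and Gbp7 above Gbp6 in 2 of 3. By its mean Gbp6 ranked above Gbp8 in activated cells (66.4 ± 14.7 and 43.4 ± 7.65 TPM) and below it in non-activated cells (25.1 ± 5.24 and 29.6 ± 1.62 TPM), where the ranges overlapped and replicate 1 had Gbp6 above Gbp8 (31.1 and 27.9 TPM).

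The 8 genes together held 983, 1134 and 1267 TPM in activated libraries, against 574, 521 and 571 TPM in non-activated ones. The mean sum was 1128 ± 142 TPM in activated and 555 ± 30.1 TPM in non-activated cells (SD, n = 3 each), a ratio of 2.03. The make-up of this pool also differed. Gbp5 took 21.03 ± 2.39% of the summed TPM in activated and 13.2 ± 1.00% in non-activated libraries, and Gbp2 took 41.3 ± 1.05% and 48.9 ± 0.72%. Gbp8 took 3.85 ± 0.47% in activated and 5.35 ± 0.56% in non-activated libraries. For these 3 genes the groups did not overlap, whereas for Gbp3, Gbp4, Gbp6, Gbp7 and Gbp9 they did. The shares are given as a description, with no test.

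**Figure D3:**
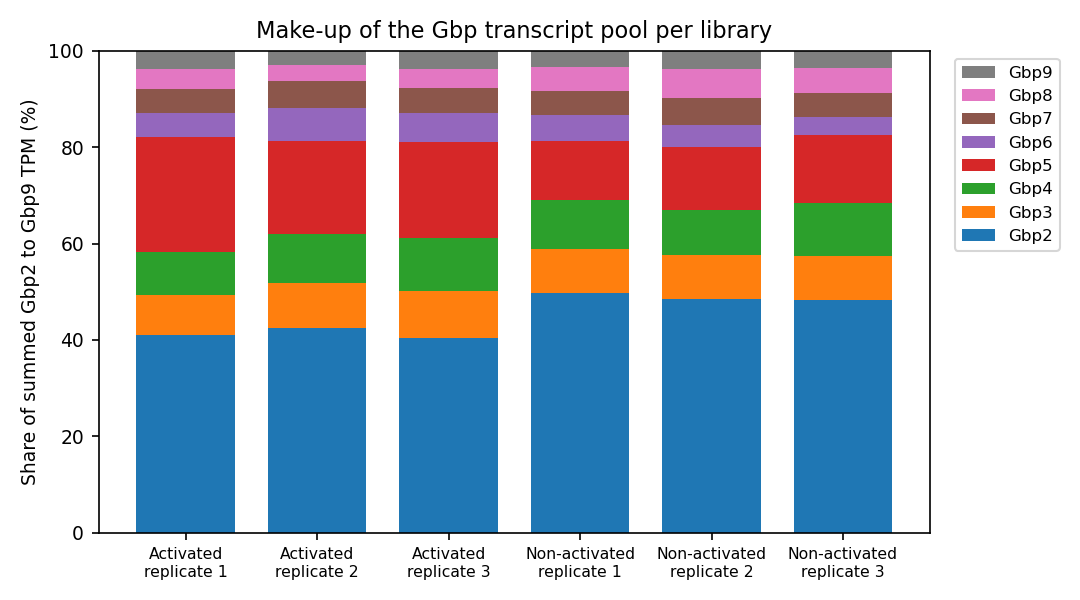
Share of each gene in the summed TPM of Gbp2 to Gbp9, in percent, in 3 activated (left) and 3 non-activated (right) libraries. The Gbp5 block (red) averages 21.03% in activated and 13.2% in non-activated libraries, and the Gbp2 block (blue) 41.3% and 48.9%.

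Deviations from group means over all genes tested correlated at 0.398, 0.313 and 0.187 for libraries sharing a replicate number. Ratios were therefore also taken within each number. Most of the 8 genes did not follow this in replicate 1, the lowest activated library for 5 and the highest non-activated one for 6. For Gbp5 the log2 ratio of activated to non-activated CPM was 1.74, 1.68 and 1.69 in replicates 1 to 3. For Gbp6 it was 0.69, 1.73 and 1.79. Replicate 1 also gave the lowest ratio for Gbp2 (0.49, against 0.94 and 0.91), Gbp3 (0.64, against 1.18 and 1.31), Gbp4 (0.64, against 1.17 and 1.28) and Gbp7 (0.77, against 1.21 and 1.25), whereas for Gbp8 and Gbp9 the lowest ratio was in replicate 2 (0.34 for Gbp8). In activated cells replicate 3 had the highest CPM for 6 of the 8 genes. Without replicate 1 of both groups the log2 fold change of Gbp6 was 1.74, that of Gbp3 1.23 and that of Gbp2 0.91, and those of Gbp5 and Gbp8 were 1.67 and 0.56. The differences in fold change between members were not tested.

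**Figure D4:**
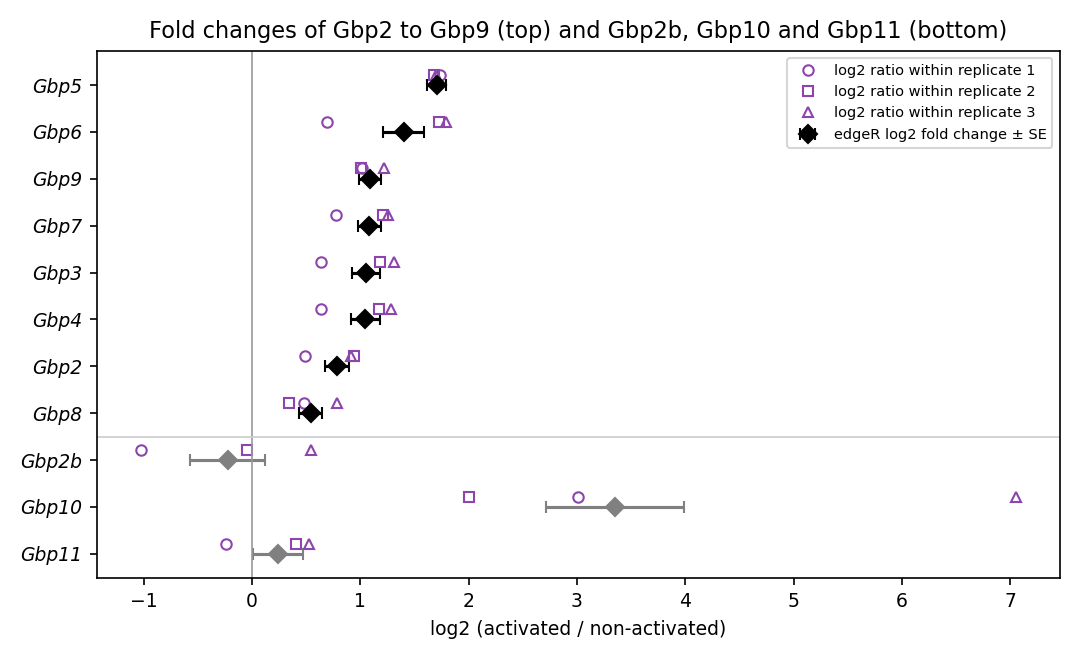
The log2 ratio of activated to non-activated cells for Gbp2 to Gbp9 (black) and for Gbp2b, Gbp10 and Gbp11 (grey): diamonds give edgeR's log2 fold change with its SE, open symbols the ratio within each replicate number. The 3 ratios of Gbp5 lie at 1.68 to 1.74, while replicate 1 lies apart from replicates 2 and 3 for Gbp6 (0.69 against 1.73 and 1.79).

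Expected counts were fractional in all 6 libraries for all 8 genes, as RSEM gives where it divides reads between genes. Of all genes with a count, 22.1% were not whole in all 6 libraries. The distance from a whole count was equal for Gbp3 and Gbp7, and for Gbp2 and Gbp2b, in every library but non-activated replicate 1. Which genes shared reads was not tested. The family genes outside the 8 had far fewer counts. Gbp2b, a chromosome 3 neighbour of Gbp2, had 126, 82.8 and 177 counts in activated libraries, against 251, 100 and 122 in non-activated ones. Its groups overlapped and it was not called (log2 -0.23 ± 0.34, SE; adjusted p = 0.669 in edgeR), and its sign turned without non-activated replicate 1 (log2 0.22, edgeR adjusted p = 0.644; 0.362 to 0.896 over all alternatives). The pseudogene Gbp11 had 91.7, 112 and 114 counts in activated libraries, against 106, 98.9 and 80.5 in non-activated ones, and was not called (log2 0.24 ± 0.23, SE; adjusted p = 0.483 in edgeR).

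Gbp10, next to Gbp6 on chromosome 5 and similar to it in sequence, had 74.2, 55.4 and 132 counts in activated libraries, against 8.74, 16.4 and 0.67 in non-activated ones. Its effective length as RSEM estimated it ranged from 524 to 3349 bases, so the transcripts its reads were placed on differed between libraries. It passed in edgeR (log2 3.35 ± 0.64, SE; edgeR adjusted p = 0.00552) but not in limma on log2(TPM + 0.1), with an adjusted p of 0.0623 (1.89e-07 to 0.0623 over all alternatives). Nor was it called in limma on log2(TPM + 1) over all genes with any TPM above 0 (adjusted p = 0.0601). Its log2 fold change was 4.18 without non-activated replicate 2 and 1.75 on log2(TPM + 1), a scale that understates changes of low genes. Adding its counts to those of Gbp6 gave a log2 fold change for the sum of 1.43 (edgeR adjusted p = 0.00101), against 1.40 for Gbp6 alone. Summed over all family genes of a cluster, which no sharing of reads inside the cluster can alter, CPM was 1466, 1618 and 1703 in activated against 819, 718 and 746 in non-activated libraries on chromosome 3. On chromosome 5 it was 454, 541 and 606 against 279, 246 and 246. The ratios of the means were 2.10 and 2.08, and the median log2 fold change was 1.07 for the 4 members on each chromosome.

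Genes around the clusters were compared by taking the 3 nearest protein-coding genes on each side, a choice made after the cluster values were seen. Of 8 such genes tested, 4 were higher and 0 lower, against 15.9% and 11.7% of all genes tested. On chromosome 3 these were Kyat3, a kynurenine aminotransferase (7.04 ± 1.69 CPM in activated against 3.19 ± 0.881 CPM in non-activated cells; edgeR adjusted p = 0.0161), and the general transcription factor Gtf2b (58.6 ± 12.8 and 30.9 ± 2.46 CPM; edgeR adjusted p = 0.00269), both downstream of Gbp2. On chromosome 5 they were Zfp951 (9.06 ± 0.417 and 4.92 ± 0.469 CPM; edgeR adjusted p = 0.00311) and the volume-regulated anion channel subunit Lrrc8c (115 ± 5.81 and 86.0 ± 5.70 CPM; edgeR adjusted p = 0.00644). Kyat3 was no longer called without replicate 1 of both groups, nor in any limma fit. Its adjusted p was 0.00108 to 0.355 over all alternatives, with edgeR, DESeq2 or limma. In limma over all genes with any TPM above 0, Zfp951 (adjusted p = 0.0696) and Lrrc8c (0.0726) were not called, the highest values of their alternatives against a lowest of 0.000128 and 0.000776. Pdlim5, Pkn2, Abcg3 and Lrrc8b did not pass.

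The genes that act with the guanylate-binding proteins did not all change with them. All 6 immunity-related GTPases tested were higher, with a median log2 fold change of 2.49, above the 1.07 of Gbp2 to Gbp9. Tgtp2 was 7.75-fold, Igtp 4.07-fold, Iigp1 11.3-fold and Irgm2 3.53-fold higher, with edgeR adjusted p of 3.11e-05, 7.89e-05, 0.000103 and 0.000214 in this order. Irgm1, a regulator that guards the cell's own membranes from these GTPases, was 2.63-fold higher (edgeR adjusted p = 0.00103). Tgtp1 and Tgtp2 are near-identical, and the division of reads between them is uncertain. Tgtp1 was not called without activated replicate 1 or non-activated replicate 3 (edgeR adjusted p up to 0.0659; 0.000278 to 0.1 over all alternatives), so 5 were higher there, and 6 without replicate 1 of both groups.

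Upstream, 3 of 8 genes of the interferon gamma axis were higher and 2 lower (median 0.02), with the same counts without replicate 1 of both groups. The transcription factor Irf1 stood at 322 ± 13.1 CPM in activated against 82.1 ± 3.50 CPM in non-activated cells (3.92-fold; edgeR adjusted p = 2.89e-06). The feedback inhibitor Socs1 (1.73-fold; edgeR adjusted p = 0.00227) and Irf8 (1.54-fold; edgeR adjusted p = 0.00862) were higher too, though Irf8 was not called in limma over all genes with any TPM above 0 (adjusted p = 0.112; the lowest was 2.4e-05). The receptor subunit Ifngr1 was lower, at 37.6 ± 3.28 CPM in activated against 53.0 ± 3.82 CPM in non-activated cells (edgeR adjusted p = 0.00565), as was the phosphatase Ptpn2 (46.4 ± 4.10 and 63.5 ± 2.60 CPM; edgeR adjusted p = 0.00578). Ifng itself, which activated T cells secrete, had 38, 0 and 6.94 counts in activated libraries, against 1, 0 and 1 in non-activated ones, too few to be tested. The 38 counts were in activated replicate 1, which also had the highest Cd3 sum (3.65 CPM), and a link between them was not tested. Of 14 genes of the type I interferon axis 7 were higher and 0 lower (median 0.58), with the smallest p for Irf9 (1.82-fold), Isg15 (4.65-fold), Ifit1 (3.65-fold) and Ifit2 (5.61-fold), whose edgeR adjusted p were 0.000338, 0.00076, 0.000781 and 0.00131 in this order. The other 3 were Rsad2, Mx2 and Ifit3, each lost in some fits that left out 1 library (edgeR adjusted p up to 0.0675, 0.131 and 0.159). The list then held 4 higher genes without activated replicate 3, non-activated replicate 2 or non-activated replicate 3, and 8 without replicate 1 of both groups. Over all alternatives, with edgeR, DESeq2 or limma, Rsad2 lost its call in 6, Mx2 in 9 and Ifit3 in 7 (adjusted p up to 0.135, 0.263 and 0.159). Limma fits were among these for each gene. Mx1 was called lower without activated replicate 3 (log2 -1.10, edgeR adjusted p = 0.0195) and with the replicate number as a block (log2 -0.79, edgeR adjusted p = 0.000269). It was also called lower with no low-count filter (log2 -0.77, edgeR adjusted p = 0.00767). Ifnb1 had 3, 7 and 6 counts in activated libraries and 0 in each non-activated one.

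Downstream, 4 of 8 inflammasome genes were higher and 0 lower (median 0.35). Casp4, which encodes caspase-11, stood at 101 ± 8.71 CPM in activated against 58.0 ± 5.72 CPM in non-activated cells (1.74-fold; edgeR adjusted p = 0.000782), Nlrp3 was 1.63-fold higher (edgeR adjusted p = 0.00595) and the pore-former Gsdmd 1.28-fold (edgeR adjusted p = 0.0116). Gsdmd lost its call without non-activated replicate 3 (0.054, the highest of the alternatives, the lowest being 0.00433). Il1b was 2.51-fold higher. Without replicate 1 of both groups 5 were higher and 1, Il18, lower. The DNA sensor Aim2 was at 42.1 ± 2.57 CPM in activated against 48.9 ± 5.71 CPM in non-activated cells and did not pass (edgeR adjusted p = 0.156).

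Of 10 genes of ATG8 conjugation, 2 were higher and 5 lower (median -0.18). The ATG8 proteins Map1lc3b (160 ± 4.90 CPM in activated against 230 ± 11.4 CPM in non-activated cells, edgeR adjusted p = 0.00144) and Gabarap (357 ± 27.9 and 471 ± 24.9 CPM, edgeR adjusted p = 0.0137) were lower, as were Atg7, Map1lc3a and Atg12. The conjugating enzyme Atg3 (1.27-fold, edgeR adjusted p = 0.0155) was higher, as was Atg5 (1.22-fold, edgeR adjusted p = 0.0317). These counts fell when libraries were left out: with each left out in turn 0 to 1 were higher and 1 to 4 lower, with the fewest lower without non-activated replicate 2. Calls over all genes fell too in these fits, from 3848 to between 2679 and 3629, and the cause was not tested. Atg5 lost its call in all 6 such fits (edgeR adjusted p up to 0.127), Atg12 and Map1lc3a in 5, Atg3 in 2 and Atg7 and Gabarap in 1, whereas Map1lc3b kept it in all 6. Over all alternatives, with edgeR, DESeq2 or limma, Atg5 lost its call in 13, Atg12 in 10 and Map1lc3a in 9. Atg7 lost it in 4, every limma fit among them (limma adjusted p up to 0.322), Atg3 in 3, Gabarap in 2 and Map1lc3b in 0. Without replicate 1 of both groups 0 were higher and 3 lower. None of the 6 prenylation genes (Fnta, Fntb, Pggt1b, Rce1, Zmpste24 and Icmt) passed in edgeR (median 0.02), the smallest adjusted p being 0.251 for Fntb. None had an unadjusted p under 0.05 either, and 0 were called in the 16 other fits, DESeq2 and limma included.

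**Figure D5:**
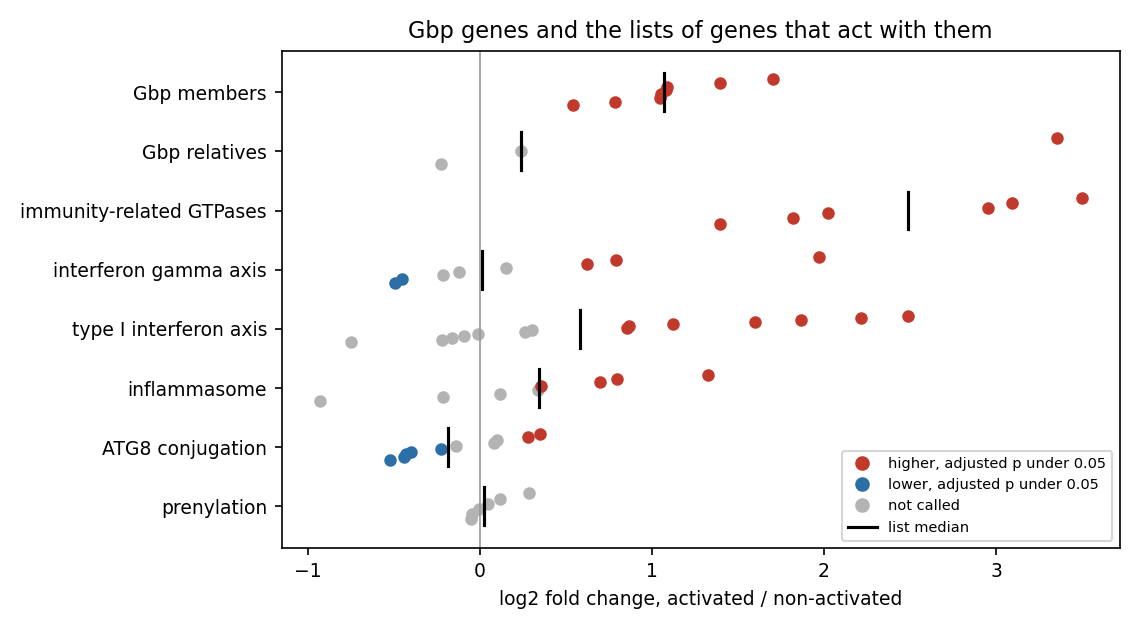
The log2 fold change of activated over non-activated cells for each tested gene of 8 lists, red where higher and blue where lower at an edgeR adjusted p under 0.05, grey where not called; black lines are list medians. Gbp2 to Gbp9 (top row) lie between 0.54 and 1.70 with a median of 1.07, the immunity-related GTPases have a median of 2.49 and the prenylation genes one of 0.02.

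The genes most like Gbp2 to Gbp9 over the 6 libraries were sought by the Pearson r of log2 CPM with the mean log2 CPM of the 8, among 5399 other genes with a mean log2 CPM of at least 5. The highest were the sulfotransferase Chst12 (r = 0.998), the RNA sensor Ifih1 (0.998), the TRIM family member Trim30a (0.997), the ISG15-conjugating enzyme Ube2l6 (0.996) and the transcription factor Tcf3 (0.995). The difference between groups is part of each r, since all 6 libraries enter it. After removal of the group means r was 0.976, 0.948, 0.970, 0.949 and 0.874 in the same order. On log2(TPM + 1) these values were 0.601, 0.803, 0.978, 0.889 and 0.956, so the likeness of Chst12 within groups was weaker there, and the full r of Ifih1 was 0.948. Each of the 8 is itself part of the mean, which raises its r, so their values cannot be set against those of genes outside. Among the 8 themselves, r with their mean after removal of group means was 0.988 for Gbp3, 0.955 for Gbp4, 0.937 for Gbp2, 0.860 for Gbp6 and 0.835 for Gbp7. It was 0.547 for Gbp8, 0.489 for Gbp9 and 0.116 for Gbp5, and on log2(TPM + 1) 0.610, 0.614 and 0.416 for these 3. Chst12 was 1.53-fold, Ifih1 1.89-fold, Trim30a 2.52-fold, Ube2l6 3.53-fold and Tcf3 1.53-fold higher in activated cells. Of these, Ifih1 was not called in limma over all genes with any TPM above 0 (adjusted p = 0.0522; the lowest of its alternatives was 3.94e-13).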

How the data were processed

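The labels' protocols give total RNA input of 200 ng, an NEBNext Ultra kit whose strand setting is not stated, and single reads of 60 bases. Per the file headers, the authors deposited RSEM gene tables with an expected count, TPM (per effective length and library total), FPKM, length and effective length; FPKM was not used. RSEM divides reads that match several genes, and PCR copies are not told apart. The submitters' processing notes name GRCm38 and do not say which tool aligned the RNA reads. Symbols were found for 99.5% of 41813 genes.

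Rounded expected counts entered edgeR 4.0.16 under R 4.3.3 (filterByExpr, leaving 13946 genes; TMM; quasi-likelihood F test on group alone; Benjamini-Hochberg adjustment; SE as the log2 fold change over the root of F). CPM values are TMM-scaled, except marker sums, which use library totals. Alternatives used DESeq2 1.42.0, limma 3.58.1 on log2(TPM + 1) or log2(TPM + 0.1), other scalings and filters, unrounded counts, each library left out, and a replicate block. The edgeR and limma tests were checked on simulated counts, and DESeq2 was not. At 21338012 to 27404937 counts per library the common biological coefficient of variation was 16.9%, and every pair of libraries within a group differed by more than sampling noise. Deviations from group means correlated at 0.398, 0.313 and 0.187 for libraries sharing a number in their titles. Each was over 0.1, and the numbers were taken to pair the samples on that ground, since no label states what a number stands for.

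The members and lists were chosen with earlier results of these data known. Named were the 8 genes, their 3 relatives, Ifng, Irf1, up to 4 called genes of smallest p per list with up to 3 of the opposite direction, and the 5 genes of highest likeness. Cell type markers are named as a check. Other list members and the neighbouring genes were named after their values were seen. A gene of the interferon gamma axis is not reported here and was left out of that list.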

Additional observations from a re-analysis of the deposited data

How the results depend on the processing

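Over 17 alternatives all 8 genes kept a positive sign, and only Gbp8 lost its call, in limma on log2(TPM + 1) over all genes with any TPM above 0 (log2 0.52, adjusted p 0.0693), leaving 7 of 8; more genes were tested there, 23587, and the cause was not tested further. Leaving out 1 library at a time kept 8 of 8, the highest adjusted p being 0.0335 for Gbp8, and log2 fold changes ranged from 0.41 to 0.61 for Gbp8 and from 1.28 to 1.60 for Gbp6. Over all genes, 3848 were called, 2216 higher and 1632 lower; on TPM with any value above 0 there were 1882, 1163 and 719, and 1061 were lower without non-activated replicate 2 (1061 to 1673 over single left-out libraries). With library totals as the only scaling 44.1% of calls were higher, against 57.6% with TMM. With the replicate block 5184 genes were called, and no call of the 8 changed; of the lists, the lower counts changed for the dendritic cell, T cell, macrophage and type I interferon genes, as given above, and 5 inflammasome genes were higher. Gbp2b turned sign without non-activated replicate 1 (0.22) and without replicate 1 of both groups (0.29), and single left-out libraries gave -0.524 to 0.22. Summing family genes by protein identity was not run, for want of protein sequences; the sum of Gbp6 and Gbp10 was chosen after seeing the data. Low counts limit Gbp2b, Gbp10, Gbp11 and Ifng.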
